A study of Mus musculus with 2 samples.

Results

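The genes of the cytosolic ribosomal proteins were examined in single cells of mouse pancreatic islets. They were taken as every gene symbol that starts with Rpl or Rps and a number, together with Rplp0, Rplp1, Rplp2 and Rpsa, without pseudogenes and without the S6 kinase genes. This gave 87 of the 27998 genes in the table. 1 symbol that the rule admits, Rps19bp1, names a binding partner of the ribosomal protein Rps19 and not a ribosomal protein.

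The islets came from wild-type C57BL/6J mice, an inbred strain, that received a 60% high-fat diet (HFD, 5 mice) or regular chow (4 mice) for 6 weeks from weaning. Islets of both diets were picked by hand, held in culture overnight and dispersed with trypsin before droplet capture, in which polyadenylated RNA is counted as unique molecular identifiers (UMIs) near the 3' end of each transcript. Each diet has 1 library of pooled mice, so that diet and library cannot be told apart, no HFD over chow difference below has a replicate check, and intervals cover counting error only. The HFD library held 4539 barcodes and 68544729 UMIs, and the chow library 6509 barcodes and 89292222 UMIs, of which 4200 HFD cells and 6109 chow cells were kept. 45 barcode sequences occurred in both libraries.

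Cells were typed by hormone share. A beta cell had at least 20% of its UMIs on the insulin genes Ins1 and Ins2. Of the rest, an alpha cell had at least 5% on Gcg (glucagon), a delta cell at least 1% on Sst (somatostatin) and a pancreatic polypeptide (PP) cell at least 15% on Ppy. The HFD library gave 374 alpha, 370 delta, 154 PP and 2968 beta cells, and the chow library 740 alpha, 447 delta, 199 PP and 4372 beta cells. Cells under all 4 thresholds with at least 5 UMIs of 5 endothelial markers (123 HFD, 172 chow) or 5 macrophage markers (69 HFD, 55 chow) served as further groups. The other markers of each hormone type, such as Irx2 for alpha cells or Hhex for delta cells, were detected in the cells of that type in both libraries. Detection here meant any UMI in the summed counts. All 5 alpha markers were also detected in delta, PP and beta cells of both libraries. All 4 delta markers were detected in beta cells too, while Ghsr was absent from PP cells and from chow alpha cells. Detection is therefore no check of the typing.

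Every cytosolic ribosome is built from a small subunit, whose proteins carry the prefix Rps, and a large subunit, whose proteins carry the prefix Rpl. Nearly all of these proteins are needed in equal number per ribosome, and their mRNAs share a terminal oligopyrimidine (TOP) tract, a C followed by further pyrimidines at the very start of the transcript, through which the kinase complex mTORC1 and the RNA-binding protein Larp1 control their translation as a group. In an islet beta cell preproinsulin, made at the endoplasmic reticulum, is a major product of the ribosomes. Ribosome use was not measured here.

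To show the TOP tract, 30-base windows around the gene start (15 bases on each side) are given for members that the diet comparison turns on, from RefSeq on GRCm38.p6. A tract was searched on the gene's strand as a C followed by at least 4 bases that are C or T, starting within 10 bases of the gene start, and it is set in capitals.
Rps27, chr3:90213634-90213663, minus strand: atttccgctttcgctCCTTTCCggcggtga
Rpl38, chr11:114668565-114668594, plus strand: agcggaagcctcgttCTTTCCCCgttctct
Rpl15, chr14:18270972-18271001, minus strand: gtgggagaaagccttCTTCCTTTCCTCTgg
Rpl7a, chr2:26910792-26910821, plus strand: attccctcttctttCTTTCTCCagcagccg
Rps28, chr17:33824548-33824577, minus strand: ggtaccgcgtgcggtctcgcgagagcgaaa
Rpl41, chr10:128549154-128549183, minus strand: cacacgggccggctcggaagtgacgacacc
Rps27 and Rpl38 were among the members relatively higher in the HFD library, and Rpl15 and Rpl7a among those relatively lower, and all 4 carry a tract. The windows of Rps28 and Rpl41 hold none by this rule. For Rpl41 this holds for the RefSeq start only. The GENCODE transcript given below starts upstream, at chr10:128549305, outside the window. Of the 87 members 66 had a promoter entry, and 40 of these (60.6%) held a tract, as did 34.3% of the 26959 other genes with an entry and 5 of 10 companion TOP genes. A match describes the letters in the window only.

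The coding sequences of Rpl41, which encodes the shortest ribosomal protein (25 codons), and of the related pair Rps27 and Rps27l are given from GENCODE M21 on GRCm38, the start and stop codon of Rpl41 in capitals and the bases of Rps27l that differ from Rps27 in capitals. The coordinates span the whole transcript, with its introns and untranslated ends.
Rpl41, 78 bases, within chr10:128548114-128549305, minus strand: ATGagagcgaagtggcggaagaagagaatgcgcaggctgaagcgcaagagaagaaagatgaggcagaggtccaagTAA
Rps27, 255 bases, within chr3:90212671-90213651, minus strand: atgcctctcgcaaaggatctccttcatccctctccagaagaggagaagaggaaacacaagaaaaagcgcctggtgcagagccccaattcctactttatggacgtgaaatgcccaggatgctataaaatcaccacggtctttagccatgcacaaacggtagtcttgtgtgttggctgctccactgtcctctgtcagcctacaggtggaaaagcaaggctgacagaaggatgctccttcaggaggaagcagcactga
Rps27l, 255 bases, within chr9:66946086-66949512, plus strand: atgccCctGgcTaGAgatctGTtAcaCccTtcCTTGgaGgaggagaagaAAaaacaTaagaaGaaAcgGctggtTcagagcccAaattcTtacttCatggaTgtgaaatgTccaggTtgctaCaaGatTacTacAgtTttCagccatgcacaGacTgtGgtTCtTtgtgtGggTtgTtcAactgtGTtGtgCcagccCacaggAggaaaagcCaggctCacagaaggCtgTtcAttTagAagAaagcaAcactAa
Rps27l differed from Rps27 at 61 of 255 positions, an identity of 76.1%. Another gene, Rps27rt on chromosome 9, had 0 of 255 positions different from Rps27, so reads of these genes could be told apart by their untranslated ends only. The split of counts between Rps27 and Rps27rt is therefore uncertain, which holds for the values of both genes below. Their counting intervals do not cover it.

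The family was among the most abundant gene groups of the islet cells. It took 25.8% of alpha cell UMIs in the HFD library and 27.6% in the chow library once the 7 hormone genes Ins1, Ins2, Iapp, Gcg, Sst, Ppy and Pyy were taken out. It took 19.1% (HFD) and 17.9% (chow) in delta cells, and 20.4% (HFD) and 19.8% (chow) in PP cells. Beta cells held 17.8% (HFD) and 17.0% (chow). Alpha cells thus had the highest share in both libraries, at 1.45 times the beta share in the HFD library and 1.62 times in the chow library, against 1.08 and 1.05 times in delta cells and 1.15 and 1.16 times in PP cells.

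Single cells spread around these shares. In alpha cells the middle 80% of cells ran from 20.5% to 31.1% in the HFD library and from 22.1% to 33.1% in the chow library. In beta cells they ran from 14.0% to 21.3% (HFD) and from 13.8% to 20.5% (chow), so the ranges of the 2 libraries overlapped almost fully. Out of all UMIs, hormones included, the share was 17.8% (HFD) and 19.6% (chow) in alpha cells and 7.08% (HFD) and 6.69% (chow) in beta cells, where hormone mRNA took 60.2% (HFD) and 60.7% (chow).

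**Figure D1:**
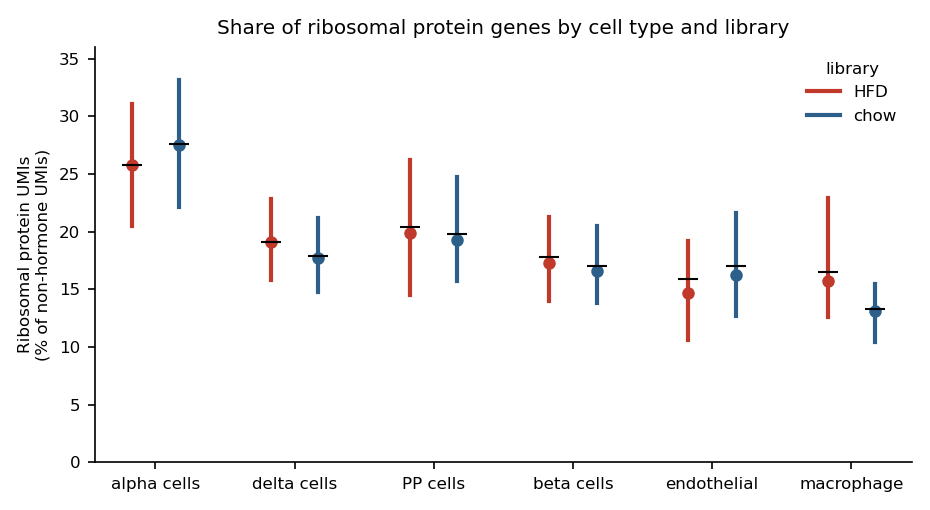
Share of non-hormone UMIs on the 87 ribosomal protein genes (vertical axis, %) in each cell group, HFD in red and chow in blue. Dots are medians over cells, vertical lines run from the 10th to the 90th percentile of cells, and black dashes are the share in the summed counts; alpha cells stand above the other groups in both libraries and the HFD and chow ranges overlap in every group.

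Between the libraries the family as a whole differed little. The log2 ratio of HFD over chow of its share was -0.09 in alpha cells (95% interval -0.10 to -0.09), 0.10 in delta cells (0.09 to 0.10), 0.04 in PP cells (0.03 to 0.05) and 0.06 in beta cells (0.06 to 0.06). As a fold this was 1.07 in delta cells and 0.936 in alpha cells. The median over all measured genes was itself off 0, by 0.02 in alpha, -0.06 in delta, -0.12 in PP and 0.15 in beta cells. Against that median the median member stood at -0.16 in alpha, 0.12 in delta, 0.12 in PP and -0.12 in beta cells, so that in beta cells the direction depends on whether the family is set against all UMIs or against the typical gene. For this reason members are described relative to the family's own median.

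To ask which members depart from the rest of the family, the log2 ratio of HFD over chow of each measured member (at least 400 UMIs over both libraries in that cell group) was set against the family median, and a member counted as departing past 0.32 in either direction. In alpha cells 7 members were higher and 0 lower of 84 measured. Among all genes, set about the all-gene median by the same rule, 11.6% were higher and 9.35% lower there. In delta cells 9 were higher and 1 lower of 82, beside 9.82% higher and 5.74% lower among all genes, and in PP cells 8 higher and 0 lower of 81, beside 11.3% higher and 8.92% lower. In beta cells 7 were higher and 3 lower of 84, beside 10.6% higher and 20.2% lower among all genes. The share of members that were higher was thus near the background in each type, and the share that were lower was below it. Common to every type were 5 of the higher members: Rps27, Rps28, Rps29, Rpl36 and Rpl41 were higher in all 4 endocrine types and also in the endothelial and macrophage groups. All groups share the same 2 libraries, and the share of all genes that were higher in every group was not counted. The endothelial group had 10 members higher and 1 lower of 80, beside 14.1% higher and 6.58% lower among all genes, and the macrophage group 9 higher and 0 lower of 80, beside 14.8% higher and 18.1% lower.

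Rps27 and Rps29 are zinc-binding proteins of the small subunit. Levels are given as CPM, the UMIs of a gene in every 1000000 non-hormone UMIs of a cell group, and are not scaled for length. Rps27 had 3382 CPM in HFD beta cells (95% Poisson interval 3357 to 3408), against 1987 CPM in chow beta cells (1970 to 2004), a relative fold of 1.67 and the highest of all members there. It had 3124 CPM in HFD alpha cells and 2607 in chow alpha cells, 3186 in HFD delta cells and 2077 in chow delta cells, and 3331 in HFD PP cells and 2223 in chow PP cells. Its level thus lay between 3124 and 3382 CPM in the 4 types of the HFD library, while the chow library held the most in alpha cells and the least in beta cells.

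Rps29 had 3179 CPM in HFD beta cells (3154 to 3204), against 2024 in chow beta cells (2007 to 2042). It had 4117 CPM in HFD alpha cells (4043 to 4192), against 2915 in chow alpha cells (2865 to 2965), and it was the member with the highest relative ratio in alpha, delta and PP cells, with relative folds of 1.56, 1.49 and 1.62. Across the 6 groups its relative log2 ratio lay between 0.56 and 0.72, so it departed by a similar amount everywhere. Rps28, a small-subunit protein near the path where mRNA leaves the ribosome, had 1862 CPM in HFD beta cells and 1280 in chow beta cells, and its relative log2 ratio lay between 0.41 and 0.59 across the 6 groups.

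In the large subunit, Rpl41 was the most abundant member by UMIs. It had 11433 CPM in HFD beta cells (11386 to 11480), against 8627 in chow beta cells (8591 to 8662), and 9537 in HFD alpha cells against 7866 in chow alpha cells. It made up 6.42% of family UMIs in HFD beta cells and 5.06% in chow beta cells. Its relative log2 ratio was between 0.38 and 0.51 in the 6 groups. Rpl36 had 2067 CPM in HFD beta cells and 1530 in chow beta cells, with relative log2 ratios between 0.33 and 0.49.

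Rpl38, a large-subunit protein known in mice for the skeletal patterning defects of its Tail short mutation, departed in every group but beta cells. It had 3090 CPM in HFD alpha cells and 2350 in chow alpha cells, 2421 in HFD delta cells and 1643 in chow delta cells, and 2412 in HFD PP cells and 1684 in chow PP cells. In beta cells it had 2233 (HFD) and 1963 (chow) CPM, a relative log2 ratio of 0.16, against 0.50 to 0.62 in the other 5 groups. Whether beta cells differ from the other groups in this could not be tested with 1 library per diet. Of the others, and among the endocrine types, Rpl37 was past the threshold in delta, PP and beta cells, Rps21 in delta and PP cells, Rps27rt in delta and beta cells, and Rpl7l1, a low-count member with 171 HFD and 232 chow UMIs, in alpha cells (relative log2 0.34) but not in beta cells (-0.14).

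Lower members were fewer and closer to the family. Rpl15, a large-subunit protein, had 379 CPM in HFD beta cells and 484 in chow beta cells, a relative fold of 0.770. It had 494 in HFD delta cells and 609.8 in chow delta cells, and it lay below the family median in all 6 groups, from -0.38 to -0.18 on the log2 scale. Rpl7a had 772 (HFD) and 1006 (chow) CPM in beta cells, the lowest relative fold there at 0.754, while in alpha cells it was at -0.02 relative to the family. Rps2, at the entry of the mRNA channel, had 2121 (HFD) and 2611 (chow) CPM in beta cells, a relative fold of 0.799. Also among the 10 lowest of beta cells, but inside the threshold, were Rps9, Rpl36al, Rpl22l1, Rps27l, Rpl27, Rpl10a and Rps3, with relative folds from 0.807 to 0.836.

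No member was past the threshold downwards in alpha or PP cells. Rps19, the protein most often mutated in human Diamond-Blackfan anaemia, had 3644 CPM in HFD alpha cells and 4792 in chow alpha cells, a relative log2 ratio of -0.26. Rps4x, Rplp0 and Rpl14 were among the 5 lowest of PP cells, at relative folds of 0.883, 0.897 and 0.895. Of 80 members measured in all 6 groups, 21 lay above the family median in every group and 19 below it in every group, and 0 members were past the threshold upwards in one endocrine type and downwards in another. Such counts were not made over all genes, and the groups share the same 2 libraries. Whether members agree between groups more than other genes do was therefore not tested.

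**Figure D2:**
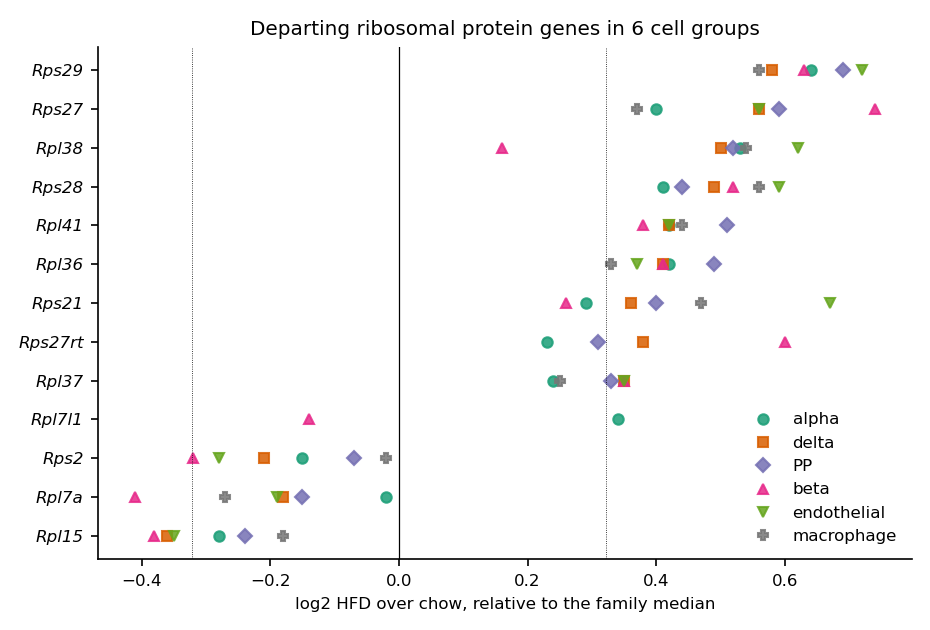
Log2 ratio of HFD over chow relative to the family median (horizontal axis) for the 13 members past 0.32 (dotted lines) in at least 1 endocrine type, with 1 symbol per cell group where the member was measured. Rps29, Rps27, Rps28, Rpl41 and Rpl36 lie right of the upper line in all 6 groups, and Rpl38 does so in every group but beta cells.

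The members that departed upwards were mostly the shortest. Members were divided by coding length after this had been seen in the data, and 86 of the 87 had a coding length. In beta cells the 11 measured members under 100 codons had a median log2 ratio of HFD over chow of 0.37, against -0.11 for the 23 members of 200 codons or more. In PP cells the medians were 0.40 and -0.12, in delta cells 0.44 and -0.04, and in alpha cells 0.15 and -0.20. Of the 11 short members 10 lay above the family median in each of these types, Rps27l being below it. Rps27 and Rps27rt are among these 10, and their counts may not be separate.

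Across members the Spearman correlation between codons and log2 ratio was -0.58 in alpha (83 members), -0.64 in delta (81), -0.75 in PP (81) and -0.43 in beta cells (83), and -0.83 and -0.68 in the endothelial and macrophage groups (80 each). The points of a group share the same 2 libraries. Other measured genes gave 0.33 in alpha (2289 genes), 0.20 in delta (1945), -0.04 in PP (729) and 0.50 in beta cells (8633). Over their whole length range the relation was thus near 0 or opposite. Most of these genes had 200 codons or more (388 in PP and 7372 in beta cells), so the length ranges compared are unlike. From under 100 codons to 100 to 150, 150 to 200 and 200 or more, their median log2 ratios were -0.01, -0.16, -0.17 and -0.19 in PP cells, the direction of the family. They were -0.04, -0.12, -0.11 and -0.06 in delta, and -0.16, -0.25, -0.14 and 0.19 in beta cells. With transcript length in place of codons the family's values were weaker, from -0.28 in beta cells to -0.51 in PP cells among the endocrine types.

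The short members together took 19.7% of family UMIs in HFD beta cells and 15.6% in chow beta cells. They took 14.4% (HFD) and 11.5% (chow) in alpha cells, 14.8% (HFD) and 11.5% (chow) in delta cells, and 14.4% (HFD) and 10.9% (chow) in PP cells. When the cells of each endocrine type and library were divided into 4 groups by depth, the HFD share was above the chow share in each of them, from 20.6% (HFD) and 16.5% (chow) in the shallowest beta cells to 19.2% (HFD) and 14.9% (chow) in the deepest. Median UMIs per beta cell were 16758 in the HFD library and 14653 in the chow library. RNA of exocrine cells also differed between the libraries: the 5 acinar markers summed to 5.59 (HFD) and 18.8 (chow) in every 1000000 UMIs of beta cells, 11.2 (HFD) and 35.1 (chow) in alpha cells, 10.8 (HFD) and 26.6 (chow) in PP cells and 254 (HFD) and 323 (chow) in delta cells. The part of these differences in the length pattern was not tested.

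**Figure D3:**
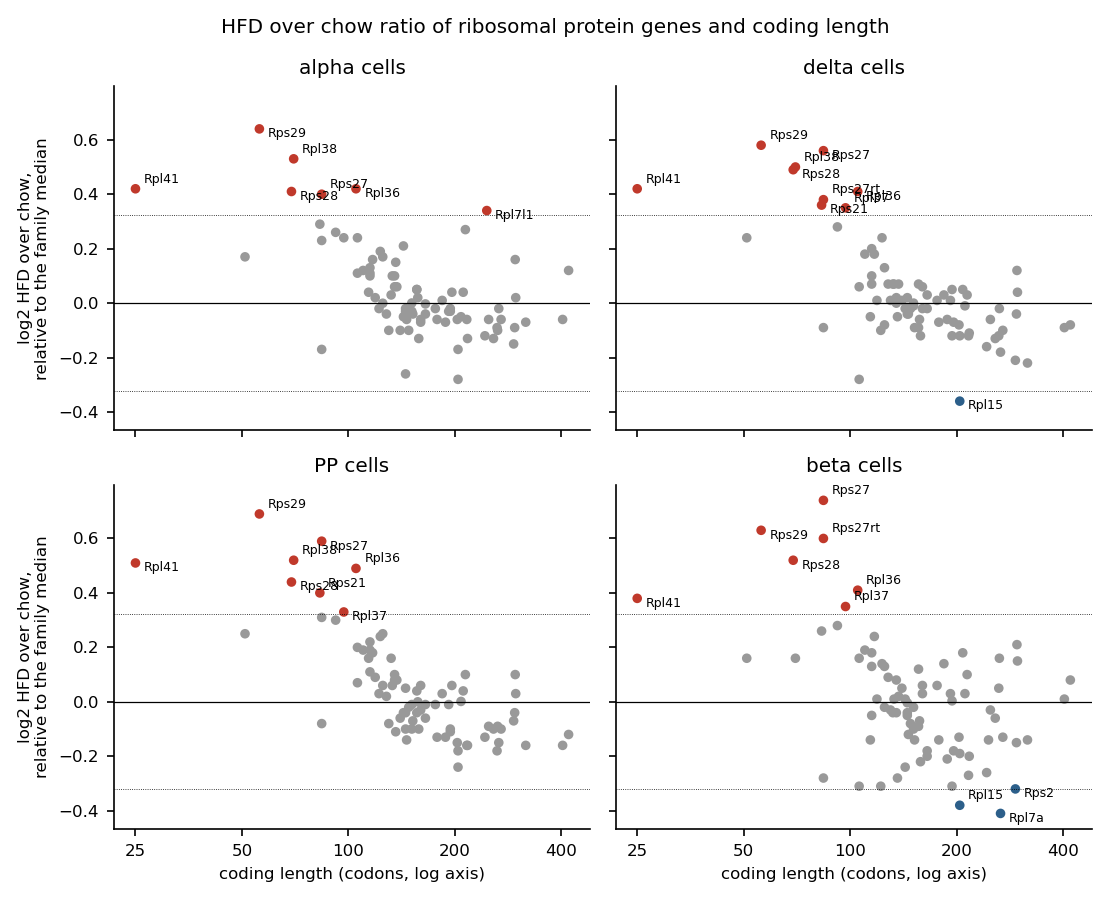
Log2 ratio of HFD over chow relative to the family median (vertical axis) against coding length (codons, log axis) in the 4 endocrine types, 1 dot per measured member with a coding length. Members past 0.32 (dotted lines) are red where higher and blue where lower and are named; those higher lie almost all at the short end in each panel.

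The cell types were compared next, with the library as a block, in edgeR's quasi-likelihood test on 8 summed counts (4 types in 2 libraries, n = 2 libraries a type). Because beta and other cells differ in family level, counts were first scaled to the family total, so that a change is one of composition. Alpha over beta, 3 members rose and 9 fell of 84 tested (adjusted p under 0.05 and a log2 fold past 0.32), beside 4.83% of all 11479 genes that rose and 75.6% that fell on this scale. Delta over beta, 13 rose and 8 fell, beside 18.3% and 31.3% of all genes. PP over beta, 14 rose and 10 fell, beside 10.1% and 34.7%. Since the family total sets the scale, genes at large shift with the level of the family while the members do not.  All 12, 21 and 24 called members had the same sign in each library taken alone, beside 70, 73 and 76 of all 84 members tested. The calls were made on these same 2 libraries, so the shared sign is not a separate check.

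Rpl41 fell in all 3 contrasts. It made up 3.69% of family UMIs in HFD alpha cells and 2.85% in chow alpha cells, 3.62% (HFD) and 2.78% (chow) in delta cells, and 3.50% (HFD) and 2.53% (chow) in PP cells, against 6.42% (HFD) and 5.06% (chow) in beta cells. The log2 fold changes were -0.81 ± 0.07 (approximate SE, adjusted p = 8.56e-08, edgeR) for alpha, -0.84 ± 0.07 (adjusted p = 1.29e-07, edgeR) for delta and -0.94 ± 0.07 (adjusted p = 7.30e-08, edgeR) for PP over beta. No value of the other types reached either beta value. Set against all genes with TMM scaling, its log2 fold change was 0.09 for alpha (adjusted p = 0.539, edgeR), -0.72 for delta and -0.63 for PP, so for alpha cells the fall was seen within the family and not against all genes.

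Rpl39, which lines the tunnel through which the new protein leaves the ribosome, was the other member to fall in all 3 contrasts. It made up 0.909% (HFD) and 0.831% (chow) of family UMIs in alpha cells, 0.992% (HFD) and 0.865% (chow) in delta cells, 0.963% (HFD) and 0.834% (chow) in PP cells, and 1.32% (HFD) and 1.22% (chow) in beta cells. Its log2 fold changes were -0.55, -0.45 and -0.50 for alpha, delta and PP over beta. With TMM scaling they were 0.36, -0.33 and -0.20, a reversed sign in alpha cells and no call in PP cells.

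The 3 contrasts share the beta sums, and values of delta and PP cells are given side by side. Cells typed as delta also held much RNA of PP markers, with values given below, so changes seen in both types are not separate findings. The part of this RNA in the shared changes was not tested. Rpl3, which reaches the peptidyl transferase centre of the large subunit, had levels of 2190 (HFD) and 2236 (chow) CPM in delta cells and 2120 (HFD) and 2370 (chow) CPM in PP cells, against 1266 (HFD) and 1240 (chow) CPM in beta cells. Relative to the family total its log2 fold changes were 0.73 ± 0.10 (approximate SE, adjusted p = 2.18e-05, edgeR) for delta and 0.63 ± 0.10 (adjusted p = 1.15e-04, edgeR) for PP, and 0.04 for alpha over beta, which did not pass. Further members that rose were Rps4x, encoded on the X chromosome, by 0.52 in delta and 0.36 in PP cells, Rpl6l by 0.49 and 0.57, Rps7 by 0.36 and 0.42, and Rpl36a by 0.35 and 0.33. Rpl6l had no coding length, and it took 4.95% to 6.62% of its pair with Rpl6 in every group and library. Whether its counts are separate from those of Rpl6 was not tested. Rplp1, an acidic protein of the stalk that recruits elongation factors, and Rpl12, at the base of that stalk, fell, with log2 fold changes of -0.54 in delta and -0.40 in PP cells for Rplp1 and -0.37 and -0.39 for Rpl12. Rps21 fell by 0.52 and 0.55, and Rpl37a by 0.47 and 0.50. With TMM scaling Rplp1, Rpl12, Rps21 and Rpl37a were not called in PP cells, at -0.09, -0.08, -0.24 and -0.19. In delta cells they were at -0.42, -0.24, -0.39 and -0.34, and only Rpl12 was not called.

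Some members were called in 1 contrast only, though several had a change of the same sign in another. Rpl29 fell in delta cells, with 0.598% (HFD) and 0.589% (chow) of family UMIs, against 0.928% (HFD) and 0.918% (chow) in beta cells, while its log2 fold change was -0.21 for alpha and -0.30 for PP over beta. Rps6, the substrate of S6 kinase, Rpl10, the late-joining protein of the large subunit near the P site, and Rps3, at the mRNA entry, rose in delta cells by 0.42, 0.41 and 0.40 on the log2 scale. For PP over beta they were at 0.19, 0.26 and 0.32 (1.24-fold for Rps3), not past the threshold. Rpl15 and Rpl6 rose in PP cells by 0.47 and 0.42, and in delta cells they were at 0.27 and 0.31, not past the threshold. The differences between these contrasts were not tested.

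Alpha cells rose relative to beta cells in Rpl13 (log2 0.46 ± 0.08, approximate SE), Rpl23a (0.36 ± 0.09) and Rps15a (0.34 ± 0.09), with adjusted p of 1.24e-04, 0.00231 and 0.00310 by edgeR. They fell most, after Rpl41, in Rpl36al (-0.74 ± 0.13), Rpl7l1 (-0.61 ± 0.16), Rps27rt (-0.55 ± 0.15) and Rps27 (-0.48 ± 0.10). For Rpl36al the log2 fold was -0.47 in the HFD library and -1.02 in the chow library, and for Rps27 -0.65 (HFD) and -0.30 (chow), so the size of these departures differed between libraries. Against all genes with TMM scaling 8 of the 16 alpha genes named had the opposite sign, and 0 of the 16 delta and 0 of the 16 PP genes. A kept sign was not always a kept call. Of all 84 members, 0 fell for alpha, 7 for delta and 1 (Rpl41) for PP over beta with TMM scaling. Relative to the family total 9, 8 and 10 fell. Most falls in PP cells were thus seen within the family and not against all genes.

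**Figure D4:**
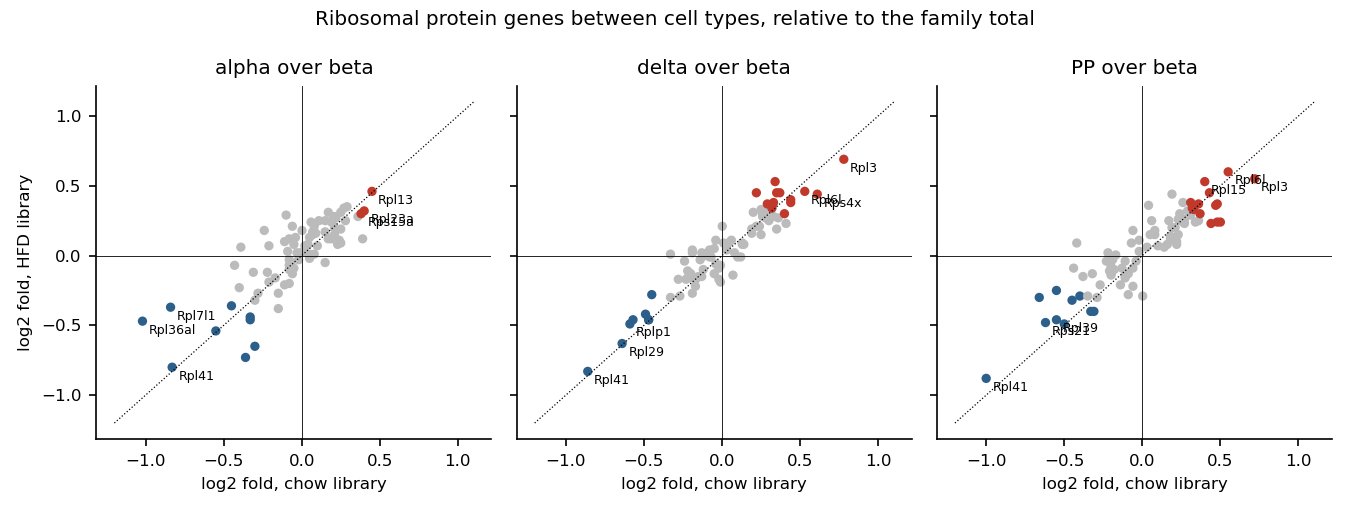
Log2 fold change of each of 84 members relative to the family total in the HFD library (vertical axis) against the chow library (horizontal axis), for alpha, delta and PP over beta cells. Called members are red (rose) or blue (fell), and the dotted line marks equal values. Every called member lies in a quadrant where both libraries have the same sign, with Rpl41 lowest in delta and PP cells. The calls were made on these same 2 libraries.

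As a level against all genes, the family was higher in alpha than in beta cells almost as a whole. With TMM scaling 80 of 84 members rose and 0 fell (median log2 0.95), beside 22.4% of all genes that rose and 23.4% that fell. Delta over beta, 27 rose and 7 fell (median 0.11), beside 23.9% that rose and 26.3% that fell. PP over beta, 45 rose and 1 fell (median 0.38), beside 19.5% that rose and 21.6% that fell. Coding length went with composition here too: the Spearman correlation of codons with the fold relative to the family was 0.39 for alpha, 0.57 for delta and 0.61 for PP over beta over 83 members. RNA of beta markers was counted in all types: the 6 markers, Iapp among them, summed to 22163 (HFD) and 30851 (chow) in every 1000000 UMIs in alpha cells, against 596577 (HFD) and 603179 (chow) in beta cells. Whether this RNA came from beta cells, and its part in the differences, was not tested. In delta cells the 6 beta markers summed to 73054 (HFD) and 85664 (chow), and in PP cells to 27057 (HFD) and 38191 (chow). The 3 PP markers summed to 148693 (HFD) and 151211 (chow) in delta cells, against 513279 (HFD) and 533945 (chow) in PP cells. In delta cells this was more than the 4 delta markers, at 77805 (HFD) and 99308 (chow). In PP cells the delta markers summed to 296 (HFD) and 611 (chow).

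Several members are copies of another one, and their shares of the pair varied by type and library. Rps27l, a paralog of Rps27 known as a target of p53, made up 14.4% of the pair's UMIs in HFD beta cells (95% Clopper-Pearson interval 14.2 to 14.7), against 25.6% in chow beta cells (25.3 to 25.9). In alpha cells it made up 19.6% (HFD) and 26.6% (chow), and the HFD share was the lower one in all 6 groups. Rps27rt stayed within 6.32% to 7.73% of its pair with Rps27 in every group and library, the HFD share being the lower one each time.

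Rpl36al made up 60.8% of its pair with Rpl36a in HFD beta cells (60.4 to 61.2) and 68.3% in chow beta cells (68.0 to 68.6). In alpha cells it made up 49.5% (HFD) and 47.2% (chow), in delta cells 50.6% (HFD) and 56.5% (chow), and in PP cells 49.9% (HFD) and 52.2% (chow). Beta cells therefore held the highest share of this copy in both libraries. Rpl22l1, a paralog of Rpl22, made up 55.4% (HFD) and 62.0% (chow) in beta cells, 64.2% (HFD) and 64.0% (chow) in alpha cells, and 38.3% (HFD) and 40.7% (chow) in the endothelial group, so it was the larger part of the pair in all 4 endocrine types and the smaller part in the endothelial and macrophage groups.

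The copies known mainly from testis or muscle in mouse were at or near 0. Rpl39l had 0 UMIs in HFD beta cells and 3 in chow beta cells beside 46814 (HFD) and 54799 (chow) of Rpl39, and Rpl3l and Rpl10l had 1 UMI each in HFD beta cells and 0 in chow beta cells. For Rpl39l, 3 UMIs in place of 0 in HFD beta cells would be 0.00641% of the pair, and the upper Clopper-Pearson bound is 0.00788%. In alpha and PP cells all 3 were at 0 in both libraries. Rpl6l, Rps19bp1, Rpl7l1 and Rps27rt were detected in all groups and fell under the minimum of 400 UMIs in some of them.

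**Figure D5:**
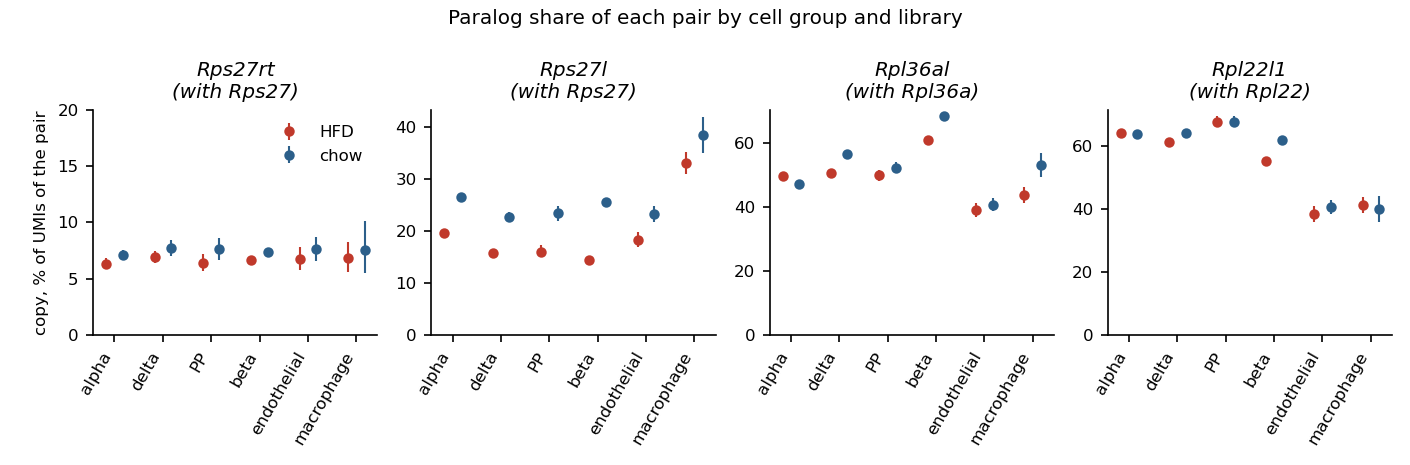
Share of the copy in the summed UMIs of a copy and its parent gene (vertical axes, %), by cell group, HFD in red and chow in blue, with 95% Clopper-Pearson intervals as bars. The Rps27l share is lower in HFD than in chow cells in all 6 groups, and Rpl36al is highest in beta cells.

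Other parts of the translation machinery were described by their own lists, relative to the all-gene median, and their counts stand beside the shares of all genes past the threshold, 10.6% higher and 20.2% lower in beta cells and 11.6% higher and 9.35% lower in alpha cells. Of the ribosomal proteins outside the rule, Fau, which encodes a fusion of a ubiquitin-like protein with a small-subunit protein, had 2036 (HFD) and 1953 (chow) in beta cells. Of 15 other TOP mRNAs measured in beta cells 1 was higher and 2 were lower past the same threshold: the elongation factor Eef2 at 1139 (HFD) and 801 (chow) CPM, and Btf3 at 353 (HFD) and 482 (chow) with Eef1d at 207 (HFD) and 268 (chow). In alpha cells 0 of 15 were higher and 1 was lower, Eif4b. These counts were below the shares among all genes in both directions.

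Ribosome assembly factors had 0 higher and 7 lower of 20 measured in beta cells (median -0.17), beside 10.6% higher and 20.2% lower among all genes, among them the nucleolar methyltransferase Fbl at 65.5 (HFD) and 85.4 (chow) CPM. In alpha cells 2 of 8 were higher, beside 11.6% of all genes, Nop58 at 89.1 (HFD) and 50.9 (chow) and Nop56 at 87.4 (HFD) and 62.9 (chow). Of the mTORC1 and translation control genes, 2 were higher and 2 lower of 12 measured in beta cells, near the shares of 10.6% and 20.2% among all genes. Pdcd4, an inhibitor of translation initiation, had 368 (HFD) and 201 (chow) CPM in beta cells, and it was past the threshold in alpha, delta and PP cells too. Eif4ebp1, a translation repressor that mTORC1 switches off, had 109 (HFD) and 190.5 (chow) in beta cells but 71.5 (HFD) and 44.4 (chow) in alpha cells.

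Genes for proteins of the mitochondrial ribosome were mostly lower in HFD than in chow beta cells by this rule. Of 74 measured there 0 were higher and 58 were lower, with a median of -0.47 about the all-gene median, against 4 higher and 14 lower of 84 cytosolic members on that scale, with a median of -0.12. Among all genes 10.6% were higher and 20.2% lower in beta cells, so the cytosolic counts lay below both shares. Genes outside the cytosolic family had ratios in beta cells that rose with coding length (Spearman 0.50). Their median log2 ratio was -0.25 at 100 to 150 codons and 0.19 from 200 codons, before the all-gene median of 0.15 was taken off. The part of coding length in the mitochondrial counts was not tested. In alpha cells 0 were higher and 2 lower of 49 measured (median -0.07), beside 11.6% higher and 9.35% lower among all genes, and in delta cells 0 higher and 1 lower of 40 (median -0.08), beside 9.82% and 5.74%.

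Between cell types, with TMM scaling, the lists are set beside the shares of all genes, of which 22.4% rose and 23.4% fell for alpha, 23.9% rose and 26.3% fell for delta, and 19.5% rose and 21.6% fell for PP over beta. Of the other TOP mRNAs 13 of 15 rose and 0 fell for alpha over beta (median log2 0.66), 10 rose and 1 fell for delta over beta, and 11 rose and 0 fell for PP over beta. Npm1, which carries ribosomal proteins and ribosomes out of the nucleolus, rose in all 3, by 1.30, 1.63 and 1.48 on the log2 scale. Ribosome assembly factors rose in 10 of 22 and fell in 0 for alpha over beta, with Gar1 (1.31), Fbl (1.16) and Nop56 (1.12) among those that rose. They rose in 9 and fell in 2 for delta and rose in 5 and fell in 0 for PP over beta, where 5 of 22 is near the share of all genes that rose. Mitochondrial ribosomal proteins rose in 40 of 76 and fell in 0 for alpha over beta, rose in 37 and fell in 3 for delta and rose in 21 and fell in 1 for PP over beta. Of the 13 mTORC1 and translation control genes 1 rose and 4 fell for alpha, 1 rose and 6 fell for delta, and 2 rose and 5 fell for PP over beta.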

How the data were processed

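UMI counts per gene were deposited as whole numbers, with no normalization that their values would show. The authors ran Cell Ranger 2.1.0 (source: submitters' processing notes). Their genome build is not given in the sources used here. Barcodes with under 500 genes or over 10% mitochondrial UMIs were removed (145 HFD, 122 chow). Scrublet's automatic threshold (scanpy 1.11.5) marked 0.0228% of HFD and 0.0470% of chow barcodes and had not worked. Barcodes scoring strictly above the cut for the top 5% of scores were removed instead (194 HFD, 278 chow). Those with a score equal to the cut were kept, so fewer than 5% were removed. Counts were summed per type and library, and 0.5 counts were added for log2 ratios. Intervals are exact Poisson or Clopper-Pearson at 95%. Types were compared with edgeR 4.0.16 (quasi-likelihood, Benjamini-Hochberg over 11479 genes, called at an adjusted p of 0.05 and a log2 fold of 0.32), checked on simulated counts, and DESeq2 1.42.0 as an alternative. The approximate SE is the log2 fold divided by the root of the test statistic. The 2 libraries are of different diets, so p-values measure how alike the types differ in both. Members and lists were chosen with earlier results of these data known. Named genes are the 10 highest and lowest relative ratios of beta cells and 5 of each other type, the 8 highest and lowest folds of each contrast, and companion-list genes past the threshold. Some genes that this rule names are not reported here.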

Additional observations from a re-analysis of the deposited data

How the results depend on the processing

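With 1 library a diet, depth limits only the counting error. The log2 ratio of the family's share kept its sign under every alternative run. With doublets kept it was 0.08 in delta, 0.05 in PP and 0.06 in beta cells. With all barcodes it was 0.07, 0.05 and 0.05 in the same order. With stricter type thresholds it was -0.11 in alpha, 0.0046 in PP and 0.07 in beta cells. With cells of equal weight it was 0.02 in PP and 0.05 in beta cells, and with cells thinned to 3800 UMIs 0.05 in beta cells. As a share of all UMIs it was -0.14 in alpha, 0.17 in delta, 0.14 in PP and 0.08 in beta cells. Past 1.5-fold the departing members numbered 1 in alpha, 0 in delta, 2 in PP and 3 in beta cells, which the stricter threshold brings by construction. Between types, TMM called 80 members in alpha, 34 in delta and 46 in PP over beta, and median-of-ratios size factors 81, 33 and 48, since both replace the scaling to the family. Without the library block 12 were called in delta and 13 in PP over beta (the cause was not tested). Leaving out 1 library left 1 sum per type and no test, and 15 to 16 members were past the fold for alpha, 21 to 24 for delta and 20 to 25 for PP over beta. Of single named members, 331 HFD over chow values stayed within the counting interval and 19 moved, and 370 folds between types kept their side of the threshold, 9 lost it and 5 gained it.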
